A study of Homo sapiens with 2 samples.

Results

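The genes of secreted antimicrobial and acute-phase proteins followed here were LCN2, DEFB4A, DEFB1, SAA1, SAA2, PI3, SLPI and LYZ. They were taken by symbol from the 36601 genes of the feature tables, and 8 of 8 were found. The cells came from colon organoids differentiated from the established human iPS cell line 1383D6 and were profiled by 3′ v3.1 single-cell sequencing (10x Genomics), with about 8300 cells loaded per library. Both groups had the same differentiation, which per the labels began with Activin A and FGF2 and went on in Matrigel with EGF, Forskolin, PD98059 and 5-Aza-2'-Deoxycytidine, among others. The CNT library was left untreated and the 3CK library received IL-1β, TNF-α and IFN-γ for 8 days, in a series whose title names a model of ulcerative colitis. Each group is 1 library of 1 cell line, so no difference could be checked against replicates or tested, and the 95% intervals given cover counting error only.

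Mucosal epithelia secrete such proteins into the lumen and the mucus. Lipocalin 2 binds bacterial siderophores and so withholds iron, β-defensins are cationic peptides that damage microbial membranes, lysozyme cuts bacterial peptidoglycan, and elafin (PI3) and SLPI inhibit neutrophil serine proteases. Serum amyloid A proteins are lipid-binding acute-phase proteins, and transcripts of LCN2, SAA1, SAA2 and the inducible defensin DEFB4A are known to rise in inflamed colon.

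Levels were read in cells sorted by transcripts that are not members. Barcodes with at least 2 EPCAM unique molecular identifiers (UMIs) per 10000 were called epithelial, 1660 in CNT and 1016 in 3CK. Barcodes with at least 5 UMIs of COL1A1, COL1A2 and COL3A1 per 10000 and under 1 of EPCAM were called mesenchymal, 574 in CNT and 124 in 3CK. A further 253 and 258 barcodes met neither rule. Median depth was 37785 (CNT) and 72198 UMIs (3CK) in epithelial barcodes, and 23450.5 and 65363 UMIs in mesenchymal ones, which made up 23.1% and 8.87% of kept barcodes. The rule let 497 CNT and 49 3CK epithelial barcodes carry collagen transcripts at the mesenchymal minimum, at median depths of 1087 and 1561 UMIs. The mesenchymal barcodes were not free of epithelial keratin, since KRT8 stood there at 56.5% of its epithelial level in 3CK, against 1.55% for the junction gene CLDN3. Summed hepatic markers reached 74799 CPM (UMIs of a gene per 1e6 UMIs of its library and cell class) in CNT and 25906 CPM in 3CK. The 6 goblet markers summed to 1115 and 620 CPM, nearly all from ZG16 (1014 and 589 CPM) and TFF3 (96.3 and 29.8 CPM), while the gel-forming mucin MUC2 was at 0.776 and 0.490 CPM.

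The genes lie on 5 chromosomes (GRCh38.p14, RefSeq). LCN2 (ENSG00000148346) is at chr9:128149453-128153453, and LYZ (ENSG00000090382) is at chr12:69348381-69354234. SAA2 (ENSG00000134339, chr11:18238236-18248668) and SAA1 (ENSG00000173432, chr11:18266264-18269967) are 17596 bases apart. PI3 (ENSG00000124102, chr20:45174902-45176544) and SLPI (ENSG00000124107, chr20:45252239-45254564) are 75695 bases apart, and the defensin genes DEFB1 (ENSG00000164825, chr8:6870592-6877936) and DEFB4A (ENSG00000171711, chr8:7894677-7896716) share chromosome 8.

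SAA1 and SAA2 differ at 11 of 369 coding bases (97.0% identical), so reads can be hard to assign to a single copy. A 3′ library samples the end of the transcript. The coding part of the last exon, which lies near that end, is shown for both genes (GRCh38, GENCODE 44). The transcripts are SAA1-201 at chr11:18269717-18269855 on the plus strand and SAA2-201 at chr11:18245377-18245515 on the minus strand. Capitals mark the 9 differing bases of 139.

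SAA1: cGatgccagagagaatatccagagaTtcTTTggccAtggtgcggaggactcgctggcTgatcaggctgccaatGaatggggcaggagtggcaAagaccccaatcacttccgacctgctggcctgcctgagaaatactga
SAA2: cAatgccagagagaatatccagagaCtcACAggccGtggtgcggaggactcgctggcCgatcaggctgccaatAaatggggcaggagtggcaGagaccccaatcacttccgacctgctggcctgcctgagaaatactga

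The stretch that follows them, the 3′ untranslated part, is less alike and differs in length, with 112 bases in SAA1 and 137 in SAA2. Of 137 aligned positions 99 are identical (72.3%), where positions present in only 1 of the genes count as differing. DEFB4A and its copy DEFB4B differ at 1 of 195 coding bases, and the coding part of the last exon (137 bases) and the 3′ untranslated part (106 bases) are identical. DEFB4A and DEFB4B UMIs can therefore be told apart by little sequence, and how the authors' counting divided such reads is not given in the sources used here.

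LCN2 was the only member with an entry in the RefSeq promoter table used. Its 250 bases upstream of the start are shown because its epithelial level differed strongly between the libraries (GRCh38.p14, chr9:128149203-128149452, plus strand). Capitals mark matches to motifs searched on both strands.

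LCN2: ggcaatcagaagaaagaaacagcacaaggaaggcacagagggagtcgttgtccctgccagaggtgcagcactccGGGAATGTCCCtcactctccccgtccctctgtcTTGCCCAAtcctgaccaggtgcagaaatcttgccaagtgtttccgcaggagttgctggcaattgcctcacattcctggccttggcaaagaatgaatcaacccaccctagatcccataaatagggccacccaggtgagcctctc

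The NF-κB-type motif GGGNNNNNCC matched at -176 (GGGAATGTCC) and, overlapping it on the other strand, at -175 (GGAATGTCCC), counted from the start. The C/EBP-type motif TTGCNNAA matched once, at -143 (TTGCCCAA), and the STAT-type motif TTCNNNGAA did not match. Among 35116 promoter windows of the same length, 54.4% held the first motif, 9.05% the C/EBP-type motif and 6.57% the STAT-type motif. These matches describe letters in the window and not binding.

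In the epithelial cells 5 of 8 members were at least 2-fold higher in 3CK (LCN2, DEFB4A, DEFB1, SAA1 and SAA2), where 8.48% of 16809 genes past a minimum of 1 CPM were, and 0 of 8 were at least 2-fold lower, against 12.1% of genes. Over the 8 members the median log2 ratio, 3CK over CNT, was 3.12, beside 0.01 over all these genes. Over all kept cells the same 5 genes were higher (6.96% of genes) and SLPI was lower (11.3% of genes), at a log2 ratio of -1.02. The SLPI call was lost with TMM factors (-0.93), with each cell given equal weight (0.0013) and without the top cells (-0.74). In the mesenchymal cells LYZ did not pass the minimum, and 6 of the other 7 were higher (6.05% of genes), SLPI being the exception, with none lower (16.7% of genes). Of these 6, LCN2 and DEFB1 lay close to 2-fold, and the count was 4 under the stricter barcode filter. With mesenchymal cells held to at least 20 collagen UMIs per 10000, the count was also 4. PI3 was then at a log2 ratio of -0.28 and SLPI was lower, at -1.86. SLPI was also lower in mesenchymal cells without the top cells (-1.39).

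**Figure D1:**
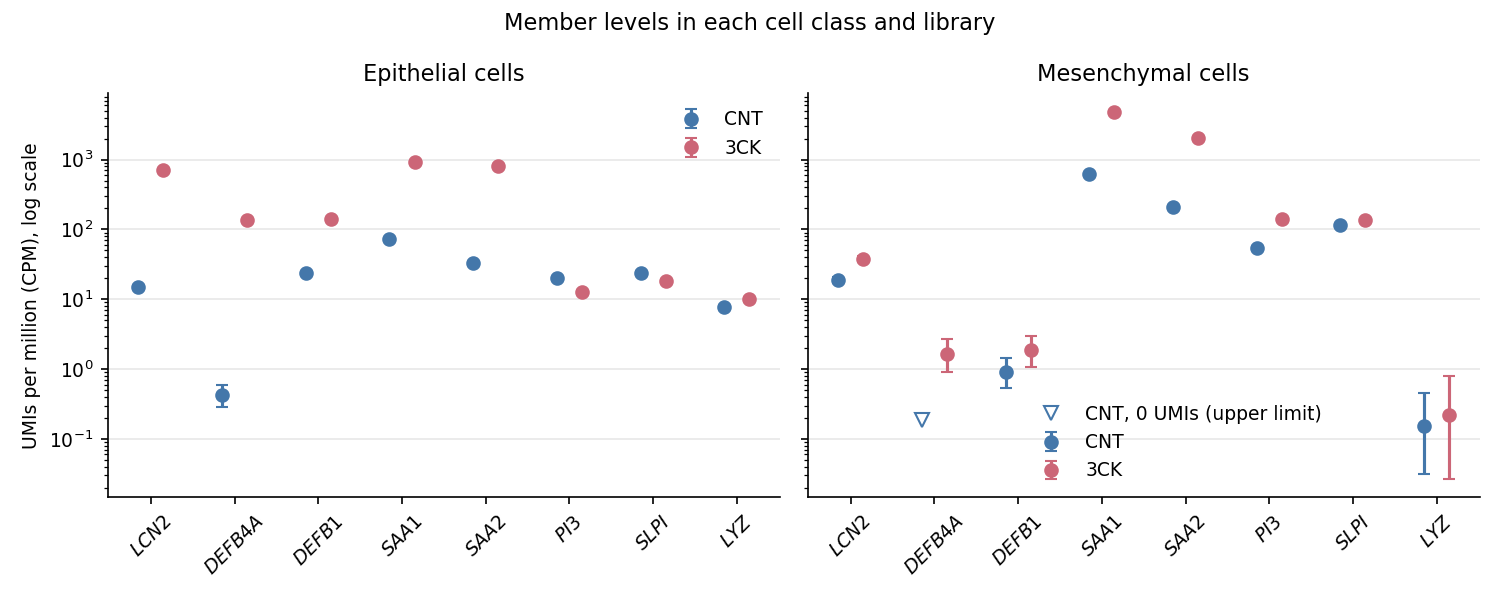
CPM of each member (log axis) in epithelial and mesenchymal cells of the CNT and 3CK libraries, 1 library each, with bars for the exact Poisson 95% interval where it is wider than the point and an open triangle for the limit of a group with 0 UMIs. In epithelial cells LCN2, DEFB4A, DEFB1, SAA1 and SAA2 sat higher in 3CK, and PI3, SLPI and LYZ lay within 2-fold of CNT.

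LCN2 stood at 15.1 CPM (14.2 to 16.0, 1149 UMIs) in CNT epithelial cells and at 702 CPM (696 to 708, 49213 UMIs) in 3CK epithelial cells. The 3CK level was 46.5-fold higher, a log2 ratio of 5.54 (5.46 to 5.63). The CNT level rested on few cells. A single CNT epithelial cell held 431 of the 1149 UMIs (37.5%) and 5 cells held 74.5%, whereas 5 cells held 13.0% in 3CK. Without the top cell of each library the log2 ratio was 6.17.

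LCN2 stood at 18.8 CPM in CNT mesenchymal cells and 37.6 CPM in 3CK ones, a log2 ratio of 1.00 (0.79 to 1.22). That ratio was set by 1 CNT barcode, which held 354 of the 369 LCN2 UMIs of its class (95.9%) and carried 0.334 EPCAM and 7.57 collagen UMIs per 10000, near the collagen minimum of 5. Without the top cell of each library the levels were 0.767 and 30.2 CPM, and the log2 ratio was 5.30 (4.55 to 6.16). The mesenchymal level in 3CK was 5.36% of the epithelial level, above the 1.22% to 3.01% seen for TTR, FABP1, CLDN3, CLDN4 and CDH1 and far under KRT19 at 30.3% and KRT8 at 56.5%. Whether free RNA has a part in the mesenchymal LCN2 level was not tested.

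**Figure D2:**
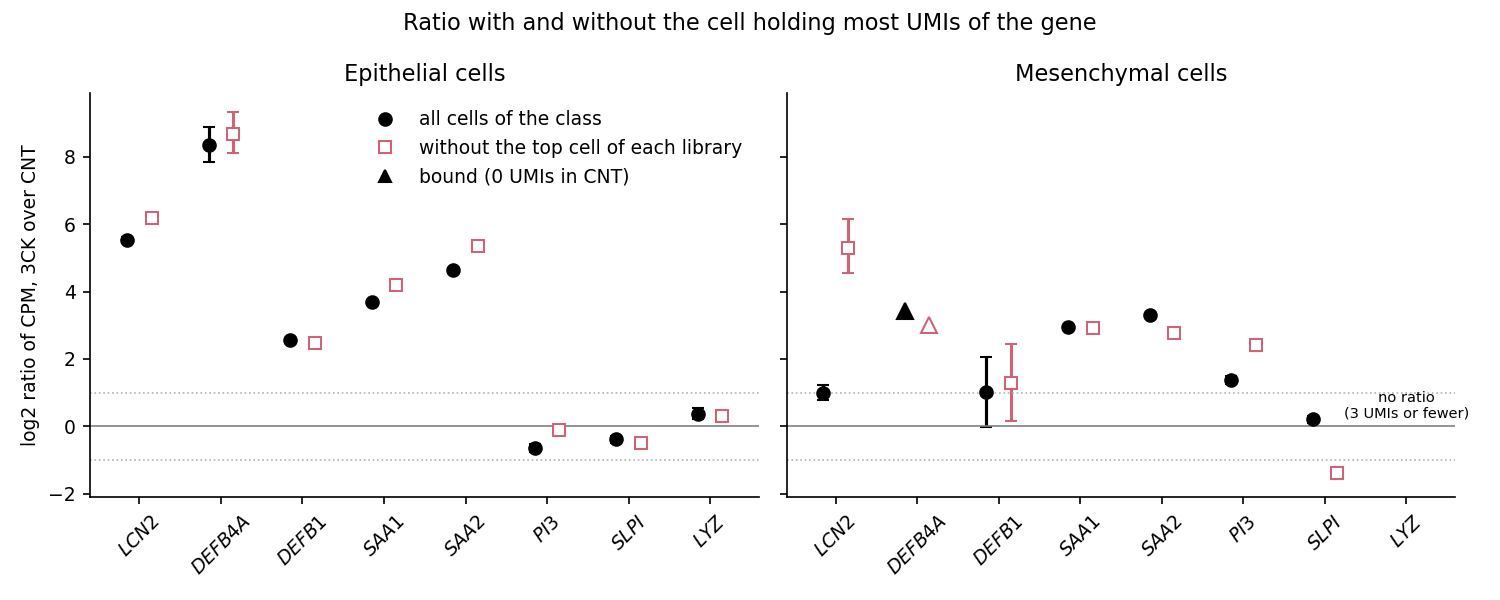
log2 ratio of CPM, 3CK over CNT, for each member with all cells of the class (filled) and without the cell that held the most UMIs of the gene in each library (open), with 95% counting intervals and triangles for lower bounds. Dropping a cell took mesenchymal LCN2 from 1.00 to 5.30 and mesenchymal SLPI from 0.21 to -1.39, while the epithelial points of LCN2, DEFB4A, DEFB1, SAA1 and SAA2 stayed above 2.

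DEFB4A, the cytokine-inducible β-defensin 2, was close to the floor in CNT. Epithelial cells held 32 DEFB4A UMIs (0.420 CPM, 0.287 to 0.593) in CNT and 9603 (137 CPM, 134 to 140) in 3CK, a 326-fold difference with a log2 ratio of 8.35 (7.85 to 8.90). Its copy DEFB4B, which shares nearly all of its sequence, had 1 and 268 UMIs, or 2.72% of the pair in 3CK. Mesenchymal cells held 0 DEFB4A UMIs in CNT and 15 in 3CK (1.65 CPM), so the level there was at least 10.8-fold higher against a floor of 3 UMIs.

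DEFB1, the β-defensin that epithelia make without stimulation, was already present in CNT. DEFB1 in epithelial cells was at 23.8 CPM untreated and 139 CPM with cytokines, a 5.85-fold difference (log2 ratio 2.55, 2.48 to 2.62). In mesenchymal cells DEFB1 had 18 and 17 UMIs, 0.916 and 1.86 CPM, and the interval of the log2 ratio, -0.02 to 2.07, included 0. Mesenchymal levels of DEFB4A and DEFB1 in 3CK were 1.20% and 1.34% of the epithelial levels, beside 1.22% for TTR and 1.34% for FABP1. The part of free RNA in these levels was not tested.

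The serum amyloid genes differed from these, since both cell classes carried them. SAA1 had 71.9 CPM in CNT epithelial cells and 933 CPM in 3CK epithelial cells (log2 ratio 3.70, 3.66 to 3.74), and at 618 and 4791 CPM in mesenchymal cells (2.96, 2.93 to 2.98). SAA2 stood at 33.1 and 818 CPM in epithelial cells (4.63, 4.57 to 4.69) and at 210 and 2064 CPM in mesenchymal cells (3.30). Summed over the 2 genes, which does not depend on how reads were divided between them, the log2 ratio was 4.06 in epithelial and 3.05 in mesenchymal cells. Their neighbour SAA4, a serum amyloid gene that is made without stimulation in liver, went from 3.28 to 32.4 CPM in epithelial and from 3.92 to 71.6 CPM in mesenchymal cells.

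The CNT epithelial level of the serum amyloid genes leaned on barcodes that also carried collagen. In the 1163 CNT and 967 3CK epithelial cells under the collagen minimum, SAA1 stood at 26.6 and 869 CPM (32.7-fold, log2 ratio 5.03) and SAA2 at 11.1 and 775 CPM (log2 ratio 6.12). One CNT epithelial barcode, with 5.05 EPCAM and 8.57 collagen UMIs per 10000, held 1899 of 5478 SAA1 UMIs and 1085 of 2521 SAA2 UMIs, and without the top cells the log2 ratios over all epithelial cells were 4.19 and 5.35. In 3CK mesenchymal cells 1 barcode held 15868 of 43671 SAA1 UMIs (36.3%) and 7927 of 18817 SAA2 UMIs (42.1%). Leaving it and the top CNT cell out gave log2 ratios of 2.91 and 2.77.

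The share of SAA2 among SAA1 and SAA2 UMIs also differed. In epithelial cells SAA2 made up 31.5% (30.5 to 32.5) in CNT and 46.7% (46.4 to 47.0) in 3CK, and in mesenchymal cells 25.4% and 30.1%. The CNT epithelial share leaned on 1 barcode with 1899 of 5478 SAA1 UMIs and 1085 of 2521 SAA2 UMIs. In epithelial cells under the collagen minimum, which leaves that barcode out, the shares were 29.5% and 47.2%. Only 19 of 1660 CNT epithelial cells had at least 20 UMIs of the pair. The mesenchymal shares rest on single barcodes: without the top cell of each gene SAA2 stood at 180 CPM beside 418 CPM of SAA1 in CNT, and at 1230 CPM beside 3141 CPM in 3CK, so no direction is read from them. Within 3CK the epithelial share was also the larger cell by cell, among 3CK barcodes with at least 20 UMIs of the pair, a minimum chosen after the data were seen. There the median share was 52.2% in 388 epithelial cells (middle 50% of cells 42.5% to 66.7%) and 29.3% in 56 mesenchymal cells (18.3% to 37.2%). Because the copies are near-identical, the absolute share depends on the authors' read assignment.

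PI3 and SLPI, neighbours on chromosome 20 whose products are both whey acidic protein-type protease inhibitors, were lower in 3CK epithelial cells and higher in 3CK mesenchymal cells. Single barcodes weighed on these values, least on epithelial SLPI, whose log2 ratio was -0.50 without the top cells. PI3 went from 19.9 to 12.7 CPM in epithelial cells (log2 ratio -0.65, -0.77 to -0.53) and from 53.9 to 139 CPM in mesenchymal cells (1.37, 1.25 to 1.49). The epithelial difference was carried by the same CNT barcode that was rich in SAA1, with 531 of 1514 PI3 UMIs: without the top cells the log2 ratio was -0.11, and in epithelial cells under the collagen minimum it was 0.12 (-0.02 to 0.26). In mesenchymal cells 1 CNT barcode held 686 of 1060 PI3 UMIs (64.7%), and without the top cells the log2 ratio was 2.42.

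SLPI in epithelial cells was at 24.0 CPM untreated and 18.3 CPM with cytokines (log2 ratio -0.39, -0.49 to -0.28), and at 116 and 134 CPM in mesenchymal cells (0.21, 0.11 to 0.31). In epithelial cells under the collagen minimum SLPI had 12.6 and 17.7 CPM, a log2 ratio of 0.49. Of the CNT SLPI UMIs 45.4% lay in barcodes of neither class, 30.4% in mesenchymal and 24.3% in epithelial cells. Barcodes of neither class held SLPI at 568 CPM (CNT) and 66.3 CPM (3CK). A single CNT barcode among them held 3019 of all 7529 SLPI UMIs of its library (40.1%). That barcode carried 4.45 collagen UMIs per 10000, just under the mesenchymal minimum. In 3CK mesenchymal cells another single barcode held 911 of 1224 UMIs (74.4%), and without the top cells the mesenchymal log2 ratio was -1.39. The mesenchymal and CNT epithelial sums of SLPI and PI3 thus leaned on a few cells. In 3CK epithelial cells the 5 top cells held 34.8% of the SLPI and 23.1% of the PI3 UMIs.

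LYZ was low and nearly level. LYZ in epithelial cells had 7.68 CPM untreated and 9.96 CPM with cytokines (585 and 698 UMIs, log2 ratio 0.37, 0.21 to 0.54), and mesenchymal cells held 3 and 2 UMIs, so no ratio was formed. Paneth cells, which make lysozyme in the gut, have 6 other genes on the marker list. Of these DEFA5 had 0 UMIs in both libraries, DEFA6 had 76 and 19, REG3A 0 and 279, PRSS2 427 and 328, ITLN2 3217 and 512, and PLA2G2A 8650 and 55010. The 6 summed to 121 and 611 CPM, and their part in the LYZ level was not tested. The neutrophil and macrophage markers FCGR3B (0 and 0 UMIs), MPO (6 and 1), ELANE (2 and 1) and C1QA (4 and 19) were at or near 0. Others of that list were not: CD68 had 2968 and 5061 UMIs, CSF3R 794 and 516, AIF1 559 and 279, CD14 414 and 238, and CD163 329 and 58. Summed over the 10 markers of that list other than LYZ, the level was 50.2 and 67.6 CPM. Within it CD68 was at 29.1 and 55.1 CPM and the pan-leukocyte gene PTPRC at 0.314 and 0.446 CPM.

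Within each library the 8 genes split by cell class. In CNT 2 of the 7 members past 1 CPM were at least 2-fold higher in epithelial cells, DEFB1 and LYZ (15.1% of genes), and 4 were at least 2-fold higher in mesenchymal cells, SAA1, SAA2, PI3 and SLPI (26.1%). In 3CK 4 of 8 were at least 2-fold higher in epithelial cells, LCN2, DEFB4A, DEFB1 and LYZ (16.8%). The other 4, SAA1, SAA2, PI3 and SLPI, were again at least 2-fold higher in mesenchymal cells (19%). Without the cell holding the most UMIs of the gene in each class, SAA2 in 3CK and PI3 in CNT were under 2-fold.

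**Figure D3:**
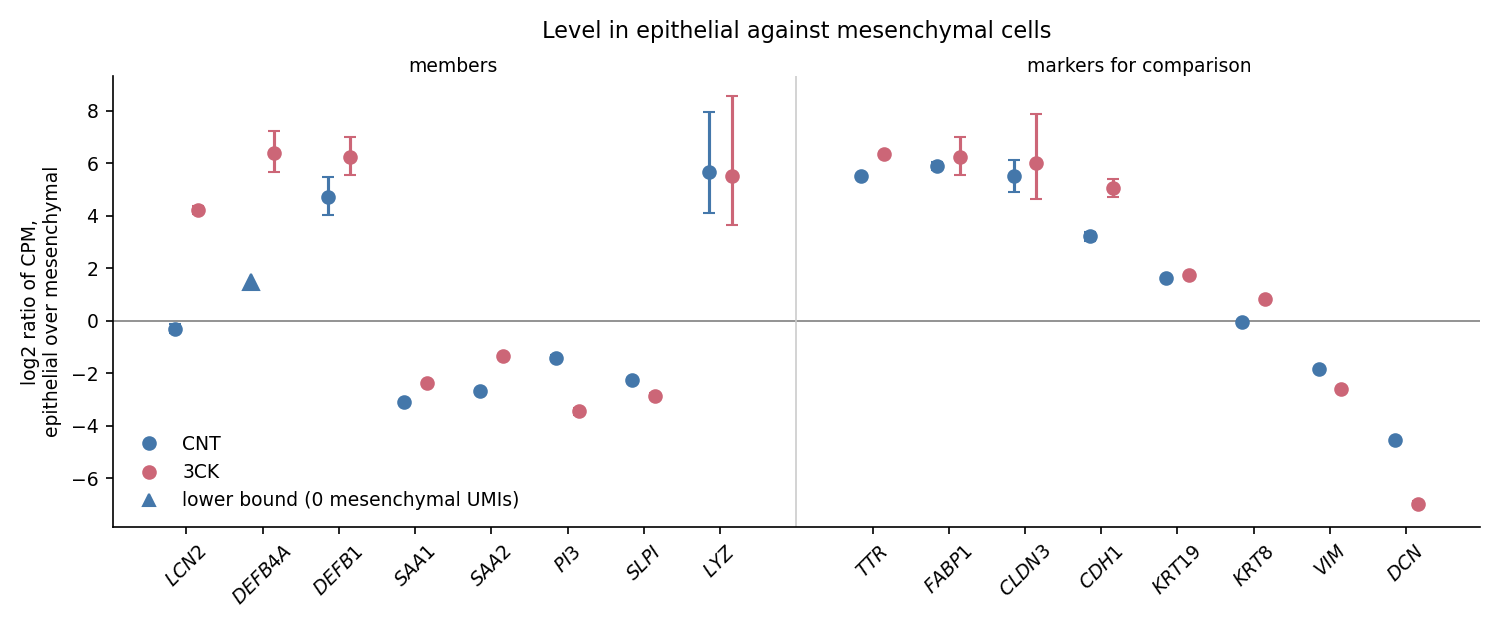
log2 ratio of CPM in epithelial over mesenchymal cells for the 8 members and for 8 marker genes, CNT and 3CK, with 95% counting intervals and a triangle for a lower bound. LYZ, DEFB1 and, in 3CK, DEFB4A sit beside TTR, FABP1 and CLDN3, between 4.70 and 6.38, whereas SAA1, SAA2, PI3 and SLPI sit below 0 in both libraries.

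For LCN2 the log2 ratio of epithelial to mesenchymal level was 4.22 in 3CK (18.7-fold higher in epithelial cells). In CNT it was -0.32, a value that rests on the single barcode named above and was 3.62 without the top cells, so no direction is read from it. In 3CK the log2 ratios were 6.38 (5.66 to 7.22) for DEFB4A, 6.22 (5.54 to 7.00) for DEFB1 and 5.50 (3.65 to 8.55) for LYZ. They were 6.36 for TTR and 6.01 (4.65 to 7.89) for CLDN3. The LYZ value rests on 2 mesenchymal UMIs and the CLDN3 value on 4. SAA1 was 8.59-fold higher in mesenchymal cells in CNT and 5.13-fold higher in 3CK, and SAA2 6.35-fold and 2.52-fold. Without the top cells SAA2 in 3CK stood at 1230 CPM in mesenchymal and 768 CPM in epithelial cells, and SAA1 at 3141 and 859 CPM. PI3 had log2 ratios of -1.44 in CNT and -3.46 in 3CK, and SLPI was 4.85-fold and 7.32-fold higher in mesenchymal cells. PI3 in CNT without the top cells stood at 19.1 CPM in mesenchymal and 12.9 CPM in epithelial cells. The 3CK value of SLPI leaned on the barcode with 911 of 1224 mesenchymal UMIs. Without the top cells SLPI in 3CK stood at 34.7 CPM in mesenchymal and 13.6 CPM in epithelial cells. Markers of neutrophils and macrophages summed to 43.2 CPM in CNT and 119.6 CPM in 3CK mesenchymal cells, with CD68 at 91.4 and PTPRC at 3.62 CPM in the latter. The part of these markers' cells in the mesenchymal levels was not tested.

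The mesenchymal excess depended on where the collagen minimum was set. In 3CK the 70 mesenchymal cells with at least 20 collagen UMIs per 10000 held SAA1 at 2820 CPM and SAA2 at 953 CPM, and the 54 cells between 5 and 20 held them at 7258 and 3456 CPM. Against the first of these groups the epithelial log2 ratio was -0.22 for SAA2, -1.60 for SAA1, -0.38 for SLPI and -2.07 for PI3. PI3 stood at 53.5 and 247 CPM and SLPI at 23.9 and 272 CPM in the same order. Among the 54 cells 1 barcode held 15868 of 29381 SAA1 UMIs and 7927 of 13989 SAA2 UMIs. Another held 911 of 1103 SLPI UMIs and a further one 351 of 999 PI3 UMIs. The higher levels in these 54 cells thus rest in part on single barcodes. In CNT the order was the other way round for SAA1 (650 and 501 CPM), SAA2 (223 and 165 CPM) and PI3 (64.8 and 15.1 CPM) and the same for SLPI (86.6 and 222 CPM). Of the CNT cells with at least 20, however, 1 barcode held 3972 of 9984 SAA1 UMIs. Another held 686 of 995 PI3 UMIs, so no order is read for these genes in CNT. The CNT cells with less collagen were shallow, with a median of 1428 UMIs against 34067.5.

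By number of UMIs the epithelial class held 93.3% of the LCN2, 94.8% of the DEFB4A, 84.0% of the DEFB1 and 92.3% of the LYZ of the 3CK library, where it held 76.3% of all UMIs. It held 53.4% of the SAA1, 67.0% of the SAA2, 38.4% of the SLPI and 29.8% of the PI3. The mesenchymal class, with 9.92% of the UMIs, held 35.6% of the SAA1 and 42.5% of the PI3. In CNT, mesenchymal cells held 65.6% of the SAA1 and 58.8% of the SAA2 with 19.3% of the UMIs.

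The share of cells with at least 1 UMI was compared at a common depth of 5000 UMIs drawn per cell, leaving 1062 CNT and 776 3CK epithelial cells and 320 and 107 mesenchymal cells. The share of epithelial cells was larger in 3CK for 6 of 8 members, where 18.1% of genes had a larger share (the interval of the difference lay above 0). LCN2 was detected in 1.69% of CNT and 35.2% (31.8 to 38.7) of 3CK epithelial cells, a difference of 33.5 percentage points (30.1 to 37.0), and DEFB4A in 0.0942% and 15.2%. DEFB1 was detected in 9.13% and 16.8%, SAA1 in 3.58% and 47.9%, and SAA2 in 2.26% and 54.4%. Without thinning the 3CK shares of LCN2, DEFB4A, DEFB1, SAA1 and SAA2 were 64.7%, 37.3%, 45.4%, 79.4% and 78.7%, against 4.22%, 0.783%, 25.5%, 11.6% and 7.17% in CNT.

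SLPI was the sixth of these genes, at 2.35% and 5.67%, although its summed epithelial level was lower in 3CK, so no order is read from its share. PI3 (4.24% and 4.12%) and LYZ (3.67% and 3.74%) had differences whose intervals, -1.94 to 1.84 and -1.66 to 1.92 points, held 0. Without thinning the shares of SLPI, PI3 and LYZ were 9.04%, 15.3% and 11.5% in CNT and 23.1%, 19.4% and 21.4% in 3CK.

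**Figure D4:**
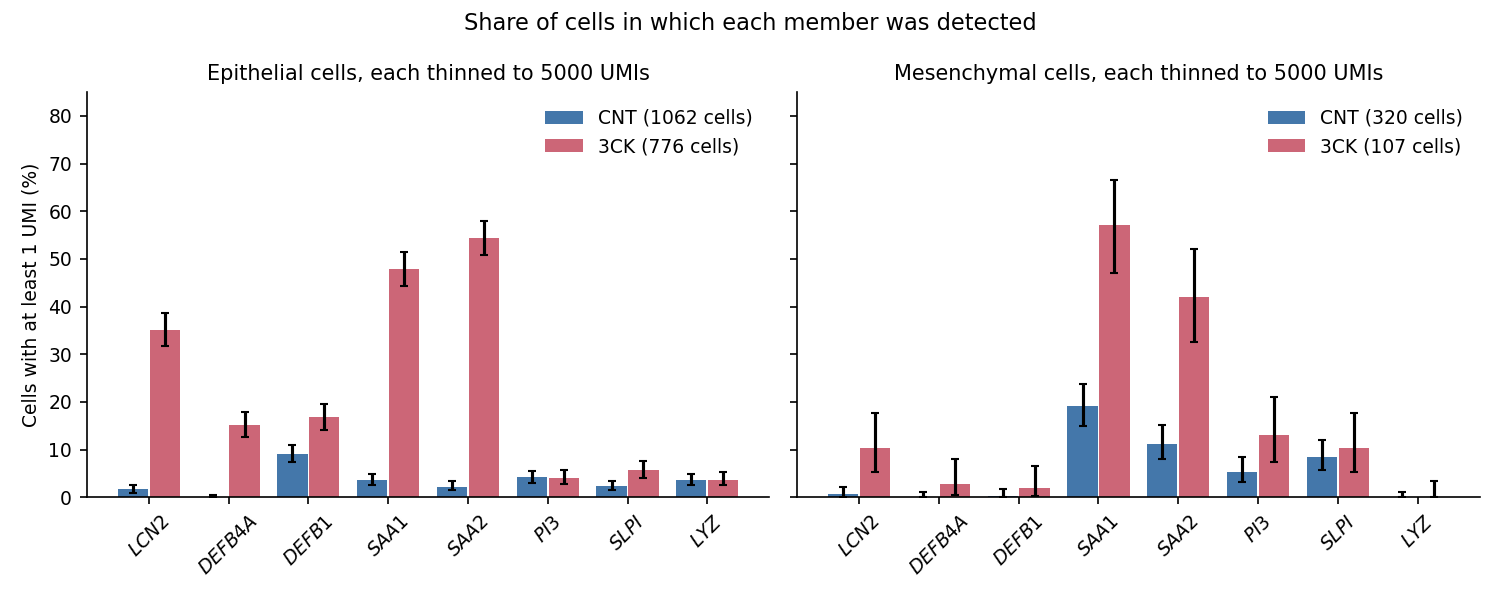
Percentage of cells with at least 1 UMI of each member after thinning to 5000 UMIs, in epithelial and mesenchymal cells of CNT and 3CK, with exact binomial 95% intervals. SAA2 (54.4%) and SAA1 (47.9%) were the most widely detected members in 3CK epithelial cells, and SAA1 (57.0%) in 3CK mesenchymal cells.

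Among mesenchymal cells SAA1 was detected in 19.1% in CNT and 57.0% in 3CK, SAA2 in 11.3% and 42.1%, and LCN2 in 0.625% and 10.3% (5.24 to 17.7). PI3 was detected in 5.31% and 13.1%, a difference of 7.77 points (1.82 to 15.7). LYZ was detected in 0 of 320 and 0 of 107 cells, which allows shares of up to 0.938% and 2.80% of cells with a UMI at this depth (3 counts of the total) and sets no limit on cells expressing the gene. Unthinned, 3 of 574 and 2 of 124 mesenchymal cells had a LYZ UMI. Epithelial genes gave shares of 5.61% for CDH1, 1.87% for CLDN4, 0.935% for FABP1 and 67.3% for the far more abundant TTR in the same 3CK cells. DEFB4A was at 2.80% and DEFB1 at 1.87%, and the part of free RNA in these shares was not tested.

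A larger share in epithelial than in mesenchymal cells of 3CK was found for 5 members (LCN2, DEFB4A, DEFB1, SAA2 and LYZ), where 10.2% of genes had one. SAA2 was 12.3 points more widely detected in epithelial cells (2.22 to 21.9) while its summed level was higher in mesenchymal cells, so again no order is read. For SAA1 the difference was -9.07 points (-18.7 to 1.02).

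A few cells carried most of the transcripts. After thinning, the top 10% of 3CK epithelial cells (78 cells) held 77.4% of the LCN2 UMIs, 91.7% of the DEFB4A, 90.7% of the DEFB1, 74.9% of the SAA1 and 67.4% of the SAA2. Unthinned, the median 3CK epithelial cell had 23.1 CPM of LCN2 and the 90th percentile cell 2211 CPM. For SAA2 these values were 151 and 1753 CPM, for SAA1 100 and 1898 CPM, for DEFB1 8.89 and 209 CPM, and for DEFB4A 0 and 229 CPM.

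Members were found together in single cells. Of the 776 thinned 3CK epithelial cells, 76.3% had at least 1 member, 53.7% (50.2 to 57.3) at least 2, 31.2% at least 3 and 5.93% at least 5, and 1 cell had 7. In CNT epithelial cells 21.8% had at least 1 and 4.05% (2.95 to 5.42) at least 2. At least 2 were found in 12.5% of CNT and 47.7% of 3CK mesenchymal cells. SAA1 and SAA2 count here as 2 members, although their reads can be hard to assign to a single copy. Both were found in 287 of the 776 3CK epithelial cells and in 43 of 107 3CK mesenchymal cells. How many cells had at least 2 members through this pair alone was not counted.

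**Figure D5:**
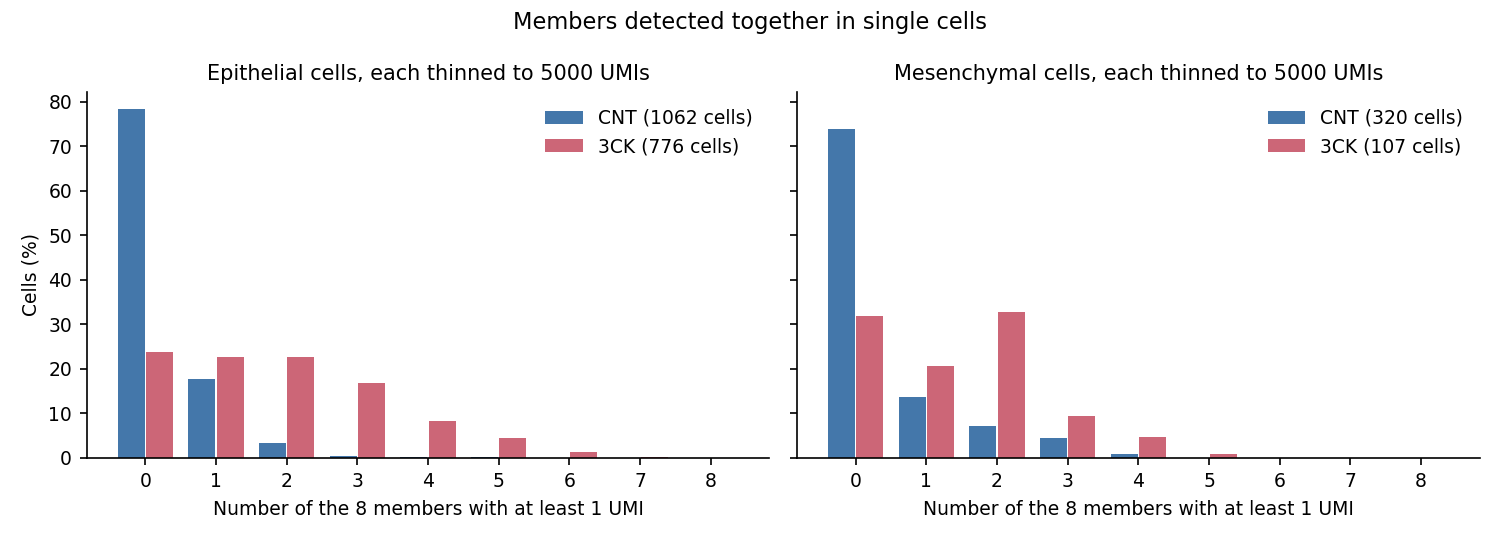
Percentage of cells by the number of the 8 members with at least 1 UMI, after thinning to 5000 UMIs, in epithelial and mesenchymal cells of CNT and 3CK. No member was detected in 23.7% of 3CK epithelial cells, and 53.7% had at least 2, where the near-identical SAA1 and SAA2 count as 2 members.

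The pair seen most often was SAA1 with SAA2, in 287 3CK epithelial cells, 1.42 times the 202 cells given by the product of the single shares. LCN2 was seen with SAA2 in 202 cells (product 148) and with DEFB4A in 75 cells (product 41.5, 1.81 times). Of the cells with DEFB4A, 80.5% also had SAA2 and 63.6% had LCN2. PI3 and SLPI were seen together in 9 cells (product 1.81). LYZ was seen with DEFB1 in 11 cells (product 4.86), with DEFB4A in 10 (product 4.41), with LCN2 in 13 (product 10.2), with SAA2 in 17 (product 15.8) and with SAA1 in 14 (product 13.9). It was seen with SLPI in 1 cell (product 1.64) and with PI3 in 0 cells (product 1.20). These counts are a description, since all cells come from 1 library.

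The genes most like each member were sought by Pearson's r of log1p UMIs over the same 776 cells among 8988 genes, which share 1 library and 1 depth. SAA1 and SAA2 were nearest to each other (r = 0.81), which their shared sequence can contribute to, and both were near LCN2 (0.44 and 0.45). LCN2 and SAA1 also had PDZK1IP1, a small membrane protein gene, among their nearest (0.41 and 0.43), and SAA2 had C15orf48 (0.46). DEFB4A was nearest to SAA2 (0.31), SAA1 (0.30) and LCN2 (0.30). DEFB1 was nearest to PDZK1IP1 (0.37) and MMP7, the matrix metalloproteinase matrilysin (0.32). No gene reached 0.3 for SLPI, and PI3 and LYZ were in under 5% of cells and were not compared.

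The epithelial cells were ordered by TTR, the most abundant hepatic marker, into 3 groups of equal size among cells with at least 5000 UMIs. LCN2 in 3CK stood at 1095, 625 and 441 CPM from the lowest to the highest TTR group, and in CNT at 44.0, 5.65 and 1.73 CPM, where 1 barcode held 431 of the 953 UMIs of the lowest group. SAA1 had the same order in 3CK (1207, 982 and 652 CPM). In CNT SAA1 stood at 88.0, 56.5 and 72.8 CPM, but 1 barcode held 1899 of the 2017 SAA1 UMIs of the highest group. No order is therefore read for SAA1 in CNT. In 3CK SAA2 (889, 895 and 685 CPM) and DEFB4A (135, 175 and 98.6 CPM) did not fall at each step and DEFB1 was nearly level (146, 126 and 144 CPM). PI3 ran the other way in 3CK, at 8.68, 13.2 and 15.6 CPM. In CNT it stood at 11.7, 16.5 and 29.3 CPM, but 1 barcode held 531 of the 810 PI3 UMIs of the highest group, so no order is read there. TTR itself fell from 64857 to 19491 CPM between the epithelial cells of the libraries, and the part of that fall in the ratios of members was not tested.

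Other secreted antimicrobial genes did not move in 1 direction. Of 32, 15 had at least 1 CPM in epithelial cells, of which 5 were at least 2-fold higher in 3CK (REG1A, REG3A, PLA2G2A, CCL20 and NOS2) and 6 lower (REG4, RNASE4, ANG, LYPD8, ITLN1 and LEAP2), beside 8.48% and 12.1% of all genes, with a median log2 ratio of -0.39. REG3A, a C-type lectin that binds peptidoglycan, had 0 UMIs in CNT epithelial cells against 278 in 3CK, which is at least 6.65 on the log2 scale. REG4, a related lectin, fell from 128 to 4.39 CPM. The most abundant gene of the list, the lectin ZG16, went from 1338 to 761 CPM, within 2-fold. PLA2G2A, a secreted phospholipase that attacks bacterial membranes, rose from 65.6 to 763 CPM.

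Of 20 other positive acute-phase genes, 19 passed the minimum, 8 were at least 2-fold higher in 3CK epithelial cells (SAA4, SERPINA3, LBP, CP, C3, CFB, SERPING1 and C4BPA) and 5 lower (APCS, FGA, FGB, FGG and HPX), beside 8.48% and 12.1% of all genes, with a median of -0.17. The complement gene C3 had the largest ratio, from 6.89 to 200 CPM (log2 4.86), and APCS the smallest (-1.93). FGB, the fibrinogen β chain and the most abundant, fell from 3253 to 1456 CPM. Of 7 negative acute-phase genes, which fall in a hepatic acute-phase response, 0 were higher (8.48% of genes) and 4 lower (12.1% of genes), namely ALB, TTR, APOA1 and SERPINA6, the last at -2.28.

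Among 20 regulators of these genes, 10 were at least 2-fold higher in epithelial cells of 3CK (among them NFKBIZ, BCL3, CEBPB, CEBPD, STAT3, ELF3, SOCS3, IL6 and OSMR) and CEBPA was lower, beside 8.48% and 12.1% of all genes, with a median of 0.95. NFKBIZ, a nuclear cofactor of NF-κB, rose from 24.9 to 76.6 CPM. CEBPA, a C/EBP factor of differentiated hepatic and intestinal cells, fell from 54.5 to 22.2 CPM (log2 -1.30). Of 15 targets and receptors of the secreted proteins 7 passed the minimum. Past 2-fold, TLR4 was higher (8.48% of genes), from 0.801 to 4.38 CPM, and SLC22A17, which encodes a lipocalin 2 receptor, was lower (12.1% of genes), from 17.9 to 3.22 CPM.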

How the data were processed

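The deposited matrices hold raw UMI counts made by the authors for every gene and barcode, with no normalization. Cell Ranger 7.1.0 and GRCh38 come from the submitters' processing notes, and the annotation release is not given in the sources used here. Both libraries list the same 36601 genes, of which 10 symbols repeat, and the libraries share 0 barcodes.

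The matrices held 3257 CNT and 1641 3CK barcodes with 105314879 and 94887438 UMIs. Barcodes with at least 500 genes and at most 20% mitochondrial UMIs were kept, which removed 412 and 52 for few genes and 306 and 175 for mitochondrial share. Scrublet in scanpy 1.11.5 scored doublets, and the top-scoring 0.8% per 1000 barcodes were dropped (52 and 16). This left 2487 CNT and 1398 3CK cells with 101831571 and 91860414 UMIs, where 3 UMIs equal 0.0295 and 0.0327 CPM.

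UMIs were summed per library and class and scaled to CPM. Intervals are exact Poisson for sums, exact binomial for ratios (from the split of UMIs between the groups), Clopper-Pearson for shares and Newcombe for their differences, all at 95% and covering counting error only. A group with 0 UMIs was set to 3 UMIs, giving a bound, and ratios of groups that both had 3 UMIs or fewer were left out. A gene counted as higher or lower at 2-fold or more with at least 1 CPM in the higher group. The scripts were tested on simulated data. TMM factors for an alternative came from edgeR 4.0.16. Coordinates and the LCN2 promoter are from RefSeq (GRCh38.p14), and transcripts from GENCODE 44.

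All 8 members were named. From each gene list those highest in mean CPM, largest in ratio and smallest in ratio were named, and for each member found in at least 5% of thinned 3CK epithelial cells the 3 most correlated genes with r of at least 0.3. PLA2G2A, NFKBIZ, the genes listed by direction and the single barcodes were named after their values were seen. The values of 1 list gene are not reported here. The members and lists were chosen with earlier results of these data known.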

Additional observations from a re-analysis of the deposited data

Results flagged for a closer look

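PI3 and SLPI differed in direction between the cell classes under the same treatment. The log2 ratio of 3CK to CNT for PI3 was -0.65 in epithelial and 1.37 in mesenchymal cells, and for SLPI it was -0.39 and 0.21. Each class is 1 library per group, so the difference between the classes was not tested. Without the cell with the most UMIs of the gene in each library, PI3 was at -0.11 and 2.42 and SLPI at -0.50 and -1.39, and the interval of the epithelial PI3 value, -0.24 to 0.03, held 0. In epithelial cells with collagen under the minimum PI3 was at 0.12, and in mesenchymal cells with collagen of at least 20 per 10000 it was at -0.28. The opposite directions of both genes thus rested on a few cells or on the collagen minimum.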

How the results depend on the processing

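No paired analysis was possible because each group is 1 library. Under the alternatives, 373 of 535 single-gene values stayed within their counting interval, 151 moved and 11 reversed. LCN2, DEFB4A, DEFB1, SAA1 and SAA2 stayed the 5 genes higher in 3CK over all kept cells and over epithelial cells under every alternative run.

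With at least 10 CPM required, the members higher in CNT epithelial than mesenchymal cells fell from 2 to 1 and the other antimicrobial genes from 5 to 3. Another random thinning, chosen after seeing the data, took the members with a larger share in 3CK epithelial than mesenchymal cells from 5 to 3. Reversed values were those of SLPI with each cell given equal weight (0.0013 over all cells, 0.56 in epithelial cells), of PI3 (0.12) and SLPI (0.49) in epithelial cells with collagen under 5 per 10000, of PI3 (-0.28) and SLPI (-1.86) in mesenchymal cells with collagen of at least 20 per 10000, and of mesenchymal SLPI without its top cell (-1.39). LCN2 in CNT, epithelial over mesenchymal, reversed with TMM factors (0.0695), equal weight (0.0289), collagen of at least 20 per 10000 (4.86) and without its top cell (3.62). The last alternative and the collagen minimum remove the cells that carried the value, and the cause of the others was not tested. At 5000 UMIs, shares rest on 107 3CK mesenchymal cells, which limits their precision.

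The median log2 ratio over all genes moved with the scaling, from 0.01 to -0.13 in epithelial cells without mitochondrial, ribosomal and the 50 most abundant genes in the total, and from -0.32 to 0.09 with TMM factors for CNT epithelial over mesenchymal cells.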
